A study of Mus musculus with 4 samples.

Results

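The back-splice junctions of the Samd4 locus were read in differentiated C2C12 cells. C2C12 is a mouse myoblast line whose cells leave the cell cycle and form myotubes in low serum. The circRNA of this gene, circSamd4, is the one that the study's title places as a repressor of the transcriptional activity of PUR proteins in myogenesis. Members were chosen by position, as the circles on the plus strand of chromosome 14 that lie within the Samd4 locus (mm9), whatever their abundance. This gave 4 circles of the 69136 in the series, and all 4 are exonic, among 4074 exonic circles. The deposited lists carry transcript identifiers without gene symbols, and 0 of these identifiers matched the name tables at hand, so the name Samd4 rests on position. The gene tables place Samd4 on chromosome 14 too, but in another build, and their coordinates were not used.

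The cells had spent 3 to 4 days in 2% horse serum. RPAD is a treatment of the extracted RNA, in which RNase R digests linear RNA for 30 min, the remaining linear RNA is given poly(A) tails, and poly(A)+ RNA is then removed. The 2 RPAD libraries are compared with 2 libraries of total RNA of the same cell line, which the labels call controls. No treatment of the cells differs between the groups, so the comparison bears on how RNA was prepared and not on myogenesis. Whether libraries of the same group stem from separate cultures is not in the labels, so p-values reflect only how far these libraries differ, which may be technical. In such bulk RNA, fewer cells that make a circle and fewer copies per cell cannot be told apart.

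Samd4, also called Smaug1 or Samd4a, encodes an RNA-binding protein with a SAM domain. Its Drosophila counterpart Smaug binds hairpins in target messengers and represses their translation. A circRNA forms when the 3' end of an exon is spliced back to the 5' end of the same or an earlier exon, so that the product has no free end. It thereby resists RNase R, an enzyme that degrades RNA from its 3' end. PURA and PURB are single-stranded nucleic acid binding proteins known to repress transcription of myosin heavy chain genes in muscle.

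The circle of the locus with the most reads is a single exon, from 47635952 to 47636470 on chromosome 14. It is exon 3 of transcript ENSMUST00000100672 and is called the exon 3 circle here. The intron before it is 131.26 kb long and the intron after it 47.424 kb. The other 3 circles lie downstream and contain more than 1 exon. A circle of 3 exons (264, 110 and 87 nt; 461 nt in all) runs from 47672525 to 47686149. A circle of 5 exons (860 nt) starts at the same position and ends at 47697267, so that it holds the same 3 exons and then those of 313 and 86 nt. A circle of 8 exons (1128 nt) runs from 47683895 to 47715849 and covers exons 4 to 11 of ENSMUST00000100672.

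**Figure D1:**
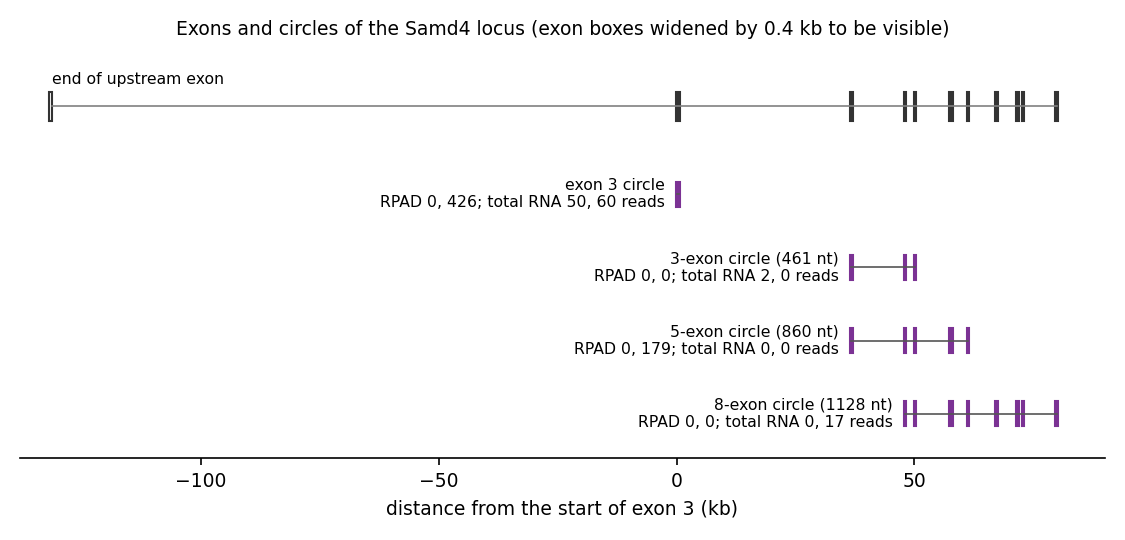
Exons and circles of the Samd4 locus, by distance in kb from the start of exon 3. The top line shows the 10 exons found in the 4 circles (filled boxes) and the end of the exon upstream of them (open box), and each row below is 1 circle with its back-splice reads in RPAD 1, RPAD 2, total RNA 1 and total RNA 2. The exon 3 circle shares no exon with the other 3, which overlap one another.

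The 4 circles used 10 exons. Exon 3 was in no circle other than its own. The exons of 110 and 87 nt were in each of the 3 multi-exon circles. The first exon of the 3-exon and 5-exon circles (264 nt) begins 36.054 kb after the end of exon 3. It lies inside what ENSMUST00000100672 treats as the intron of 47.424 kb, and the 3-exon and 5-exon circles were assigned to other transcripts, PREDICTED.62416.5 and ENSMUST00000125113. The downstream circles therefore start at 2 different exons and end at 3. The mm9 sequence of these exons was not at hand, and none is printed.

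The exon 3 circle had 0 and 426 reads in the RPAD libraries, against 50 and 60 reads in the total RNA libraries. It was listed in 3 of the 4 libraries, and RPAD 1, where no circle of the locus had a read, lay below all of them. The total RNA counts therefore lay between the RPAD counts, and the groups overlapped. As a share of exonic back-splice reads it made up 0% of RPAD 1 and 0.464% of RPAD 2 (exact 95% Clopper-Pearson interval 0.421 to 0.510). In total RNA the shares were 0.309% (0.229 to 0.407) in library 1 and 0.390% (0.298 to 0.501) in library 2. The intervals of the total RNA libraries overlap each other, and that of RPAD 2 overlaps that of total RNA 2 but not that of total RNA 1. These intervals cover counting error alone, since the libraries carried no molecular identifiers to mark PCR copies.

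RPAD 1 held 55971 exonic back-splice reads, more than either total RNA library. They fell on 499 exonic circles, against 777 in RPAD 2, 2067 in total RNA 1 and 1821 in total RNA 2. Since PCR copies were not marked, the number of molecules behind these reads is not known. As far as counting error of reads goes, a count of 0 allows a share of up to 0.00536% in RPAD 1 (3 reads, or 0.00659% by the exact interval). A count of 0 in RPAD 1 was common among circles with many reads in RPAD 2. Of the 54 exonic circles with 426 reads or more in RPAD 2, the exon 3 circle included, 25 (46.3%) had no read in RPAD 1. Exonic reads numbered 91868 in RPAD 2, 16179 in total RNA 1 and 15392 in total RNA 2.

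**Figure D2:**
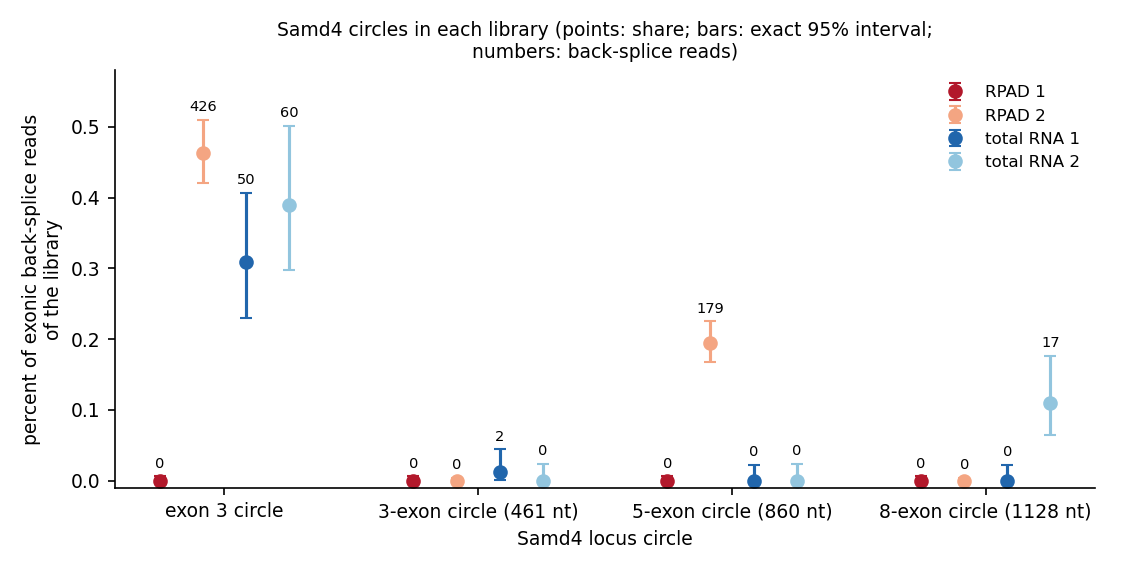
Share of exonic back-splice reads, in percent, taken by each of the 4 Samd4 circles in each library. Points are 1 library each, bars are exact 95% intervals for counting error, and numbers are reads. The exon 3 circle lies between 0.309% and 0.464% in 3 libraries and at 0% in RPAD 1, while each multi-exon circle is above 0 in 1 library.

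RPAD did not separate from total RNA for the exon 3 circle. Its share of exonic reads was 0.232% ± 0.328 in RPAD and 0.349% ± 0.0571 in total RNA (SD, n = 2 each; exact two-sided permutation p = 1; a p under 0.05 cannot be reached with 2 against 2 libraries). The difference of RPAD from total RNA, -0.118 points, became 0.114 points without RPAD 1 and -0.349 points without RPAD 2. RPAD 2 alone had 1.33 times the mean share of total RNA.

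The test across all circles called no difference for this circle with all 4 libraries. RPAD counts of 0 and 426 left it little power to do so. In edgeR's quasi-likelihood test, with scaling by TMM, the exon 3 circle had a log2 fold change of -0.32 (SE 2.79) for RPAD against total RNA, with a Benjamini-Hochberg adjusted p of 0.999 over 924 circles. Over its alternatives the adjusted p was 0.00149 to 1. None of the 924 was called, by edgeR (0, 0%) or by DESeq2 (0), while 162 had an unadjusted p under 0.05 in edgeR and 164 in DESeq2. The median log2 fold change was -0.15 over all tested circles and -1.07 over the 462 exonic ones. With an SE of this size, in log2 units, even a change of many fold in either direction would not have been detected. The sign depended on the scaling, at 0.05 with DESeq2 size factors, although relative to the median of all tested circles it stood at -0.17 (TMM), -0.63 (totals alone) and -0.13 (those size factors). Relative to the median of the tested exonic circles it stood at 0.75 (TMM), 0.35 (totals alone) and 0.74 (those size factors). With no low-count filter it stood at 3.88 against the exonic median and -1.10 against that of all circles. With a filter of at least 10 reads in 2 libraries these were 0.20 and -0.65. Its sign against the median thus depended on which circles gave the median, and its size on the filter. Without RPAD 1 the log2 fold change was 0.93 (edgeR, Benjamini-Hochberg adjusted p = 0.626). Without RPAD 2 it was -10.34 and was called (edgeR, Benjamini-Hochberg adjusted p = 0.00149). That value is set against a single RPAD library with 0 reads, so it is no estimate of size.

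Of the 4 circles of the locus, 1 passed the low-count filter of that test, the exon 3 circle. The others were listed in 1 library each. The 5-exon circle had 0 and 179 reads in RPAD and 0 in each total RNA library. Summed over libraries and relative to all back-splice reads, this is higher in RPAD. A floor of 3 reads for the total RNA group, which covers counting error of the 0 reads alone, makes it at least 13.1-fold. All of these reads came from RPAD 2, where it took 0.195% of exonic reads (0.167 to 0.226). RPAD 1 gave no read, so the RPAD libraries themselves differ.

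The 8-exon circle had 0 reads in each RPAD library, against 0 and 17 reads in total RNA. It was at least 25.9-fold lower in RPAD by the same floor, set over the RPAD group, and its reads came from total RNA 2 alone (0.110% of exonic reads, interval 0.0644 to 0.177). Total RNA 1 held more exonic reads than total RNA 2 and gave no read of it. The 3-exon circle had 0 reads in each RPAD library, against 2 and 0 in total RNA, too few for a fold. Both bounds cover the counting error of the 0 reads alone and can be too high.

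A circle with many reads in 1 library and none in others was common among all exonic circles. RPAD 2 held 110 exonic circles with 179 reads or more, the 5-exon circle included. Of these, 64 (58.2%) were absent from RPAD 1 and 37 (33.6%) from both total RNA libraries. As many as 29 (26.4%), the 5-exon circle among them, had 0 in all 3 other libraries. Total RNA 2 held 182 exonic circles with 17 reads or more, the 8-exon circle included. Of these, 95 (52.2%) were absent from both RPAD libraries and 60 (33.0%) from total RNA 1. A total of 52 (28.6%), the 8-exon circle among them, had 0 in the other 3 libraries. These shares describe the libraries and call nothing particular to Samd4.

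The locus as a whole had 0 and 605 reads in RPAD, against 52 and 77 in total RNA. This was 0% and 0.316% (0.292 to 0.343) of all back-splice reads in RPAD and 0.134% (0.100 to 0.175) and 0.214% (0.169 to 0.267) in total RNA. RPAD 2 was the highest library and RPAD 1 the lowest. The mean was 0.158% ± 0.224 in RPAD and 0.174% ± 0.0567 in total RNA (SD, n = 2 each; exact two-sided permutation p = 1). The difference of -0.0158 points turned to 0.142 points without RPAD 1 and to 0.0243 points without total RNA 2. Without RPAD 2 it was -0.174 points, and without total RNA 1 it was -0.0558 points. When circles with a single read in a library were left out of that library, it was -0.0949 points.

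No intronic circle was listed at the locus in any library. An intronic circle begins at a 5' splice site and ends inside the intron, and such circles made up 65062 of the 69136 in the series. A count of 0 allows up to 3 reads per library, which is 0.00199% and 0.00157% of back-splice reads in RPAD and 0.00772% and 0.00834% in total RNA. The absence was common among hosts of this kind. When transcript identifiers were linked by shared splice sites, 34 host groups, the locus included, had at least as many exonic reads in total RNA as the locus (129). Of these, 13 (38.2%), the locus among them, listed no intronic circle. In RPAD 1, 8 of these 34 host groups had no exonic read, and in RPAD 2 again 8.

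Within the locus the exon 3 circle held most reads wherever any were found. It took 70.4% (66.6 to 74.0; 426 of 605 reads) in RPAD 2, against 96.2% (86.8 to 99.5; 50 of 52) in total RNA 1 and 77.9% (67.0 to 86.6; 60 of 77) in total RNA 2. RPAD 1 gives no value, so RPAD has 1 library here and no test was made. The second circle of the locus was the 5-exon one in RPAD 2, with 29.6% (26.0 to 33.4), the 3-exon one in total RNA 1, with 3.85% (0.469 to 13.2), and the 8-exon one in total RNA 2, with 22.1% (13.4 to 33.0). The circle next to the exon 3 one thus differed in all 3 libraries.

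Summed by the transcripts that share a junction or an intron, the locus fell into 2 host groups. The group of ENSMUST00000100672, which holds the exon 3 and 8-exon circles, had 0 and 426 reads in RPAD and 50 and 77 in total RNA. Its log2 fold change was -0.73 (SE 2.72; edgeR, Benjamini-Hochberg adjusted p = 0.955 over 1424 host groups, 0.000834 to 1 over its alternatives), against a median of -0.93. It was 0.36 when RPAD 1 was left out. With RPAD 2 left out it was -10.26 and was called, again against a lone library with 0 reads. No host group was called by edgeR (0 of 1424, 0%), where 376 had an unadjusted p under 0.05, and 104 (7.3%) were called by DESeq2, without this one (Benjamini-Hochberg adjusted p = 0.975). The group of ENSMUST00000125113, which holds the 3-exon and 5-exon circles, had 0 and 179 reads in RPAD and 2 and 0 in total RNA and did not pass the low-count filter.

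Among exonic circles the exon 3 circle ranked high in each library that listed it. It was number 54 of 777 exonic circles in RPAD 2, against number 44 of 2067 in total RNA 1 (level with 2 others) and number 32 of 1821 in total RNA 2. Fewer reads were held by 93.1% of the exonic circles listed in RPAD 2, 97.8% in total RNA 1 and 98.2% in total RNA 2. The median exonic circle had 14 reads in RPAD 2, 2 in total RNA 1 and 3 in total RNA 2, and the most abundant had 3881, 1212 and 1093. RPAD 1 listed 499 exonic circles without it. The 5-exon circle was number 109 in RPAD 2 (level with 1 other), the 8-exon circle number 174 in total RNA 2 (level with 8 others) and the 3-exon circle number 993 in total RNA 1 (level with 300 others).

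**Figure D3:**
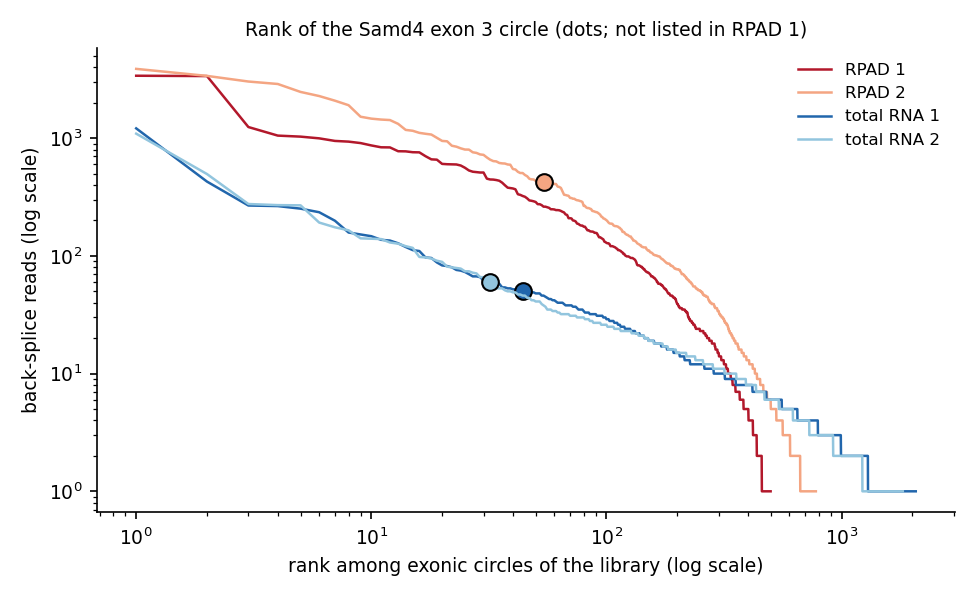
Back-splice reads of each exonic circle against its rank in the library, on log scales, with 1 line per library. Dots mark the Samd4 exon 3 circle, at rank 54 in RPAD 2, 44 in total RNA 1 and 32 in total RNA 2; it has no dot in RPAD 1, where it was not listed.

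The next circles up and down differed from it by few reads. In RPAD 2 the next above was a circle of 4 exons on chromosome 17 from 66386833 to 66402431, with 431 reads, and the next below was a circle of 6 exons on chromosome 12 from 52748981 to 52762700, with 425. In total RNA 1 the next counts were 51 reads, held by 2 circles, and 49 reads, held by 3. In total RNA 2 a circle of 3 exons on chromosome 19 from 45012855 to 45018009 had 65 reads, and a circle of 9 exons on chromosome 16 from 94605519 to 94614781 had 56. These gaps lie within the counting intervals of the exon 3 circle.

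Among single-exon circles it stood near the top. It was number 6 of 193 in RPAD 2, against number 5 of 474 in total RNA 1 and number 4 of 395 in total RNA 2. It took 3.86% (3.50 to 4.23) of single-exon circle reads in RPAD 2, 2.59% (1.93 to 3.40) in total RNA 1 and 3.55% (2.72 to 4.55) in total RNA 2. A circle of 1970 nt on chromosome 4, from 83937597 to 83939566, was above it in all 3 of these libraries. All 4 single-exon circles above it in total RNA 1 and all 3 in total RNA 2 were longer than it, the shortest at 546 nt. Of the 5 above it in RPAD 2, 4 were longer, and 3 had 0 reads in both total RNA libraries.

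The closest of these in length is a circle of 546 nt on chromosome 7, from 75148696 to 75149241, which also had no read in RPAD 1. It had 0 and 70 reads in RPAD, against 67 and 29 in total RNA. Its flanking introns measure 50.857 and 160.637 kb. In contrast to the exon 3 circle, its reads in RPAD 2 were close to those in total RNA 1, a library with fewer exonic reads. It was chosen after its values were seen, from the circles ranked above and for its length, so the pair is compared without a test.

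The exon of the exon 3 circle was long for a single-exon circle, and its flanking introns were long as well. Among 832 single-exon circles with an annotated intron on each side, the median length was 134 nt and 97 were longer than the exon 3 circle. The median upstream intron was 1.42 kb, and 5 of the 832 exceeded the 131.26 kb of the Samd4 circle. The median downstream intron was 1.38 kb, and 33 exceeded 47.424 kb, the length in ENSMUST00000100672. In the transcripts of the 3-exon and 5-exon circles, the intron that starts at the end of exon 3 measures 36.054 kb. The rank of that length was not computed. Both introns of ENSMUST00000100672 together came to 178.684 kb, more than for 98.8% of single-exon circles. Against all 3838 exonic circles with both introns annotated, whose median spliced length was 540.5 nt, its length was ordinary, with 48.2% shorter. The median single-exon circle listed had 1 read in each total RNA library and 3 in RPAD 2. Long introns were not particular to the exon 3 circle. Single-exon circles ranked above it in total RNA 1 had introns of 50.857 to 97.226 kb upstream and 15.245 to 160.637 kb downstream. In total RNA 2 those above it had 8.214 to 97.226 kb and 6.712 to 172.92 kb. In RPAD 2 a circle of 102 nt above it had no annotated flanking introns. The introns of the others reached down to 0.935 and 1.289 kb, below both single-exon medians. Long introns on both sides of an exon are a known feature of many circRNA hosts. Whether they bear on the abundance of the exon 3 circle was not tested.

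**Figure D4:**
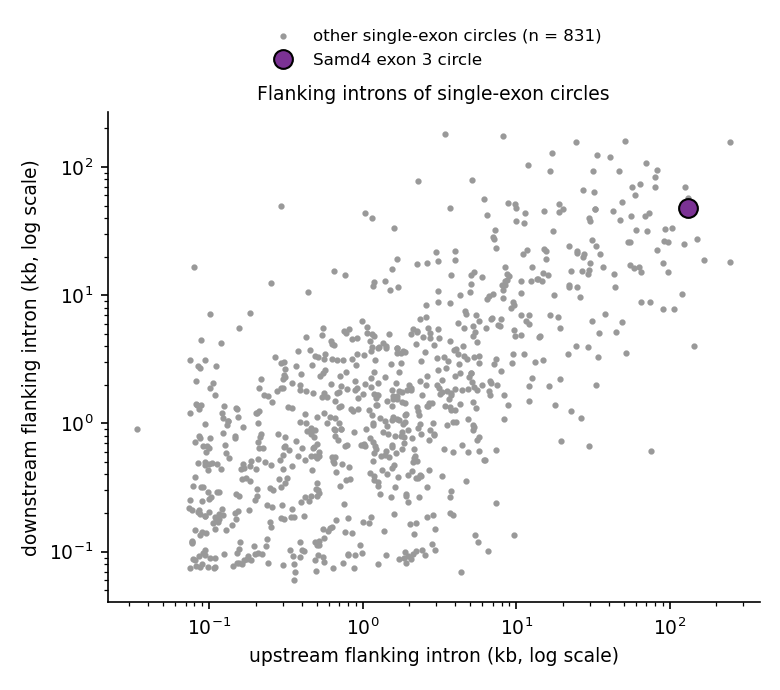
Upstream against downstream flanking intron, in kb on log scales, for single-exon circles with both introns annotated. The purple dot is the Samd4 exon 3 circle, with introns of 131.26 and 47.424 kb in ENSMUST00000100672. The grey dots are the other 831, of which 5 have a longer upstream intron and 33 a longer downstream one.

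The multi-exon circles of the locus had long introns upstream and ordinary ones downstream. The intron before the 3-exon and 5-exon circles measures 36.054 kb, longer than for 91.7% of the 3838 exonic circles, and that before the 8-exon circle 47.424 kb, longer than for 94.3%. The introns after them measure 7.361, 5.904 and 5.256 kb for the circles of 3, 5 and 8 exons, longer than for 67.8%, 62.2% and 59.6%. The intron of 47.424 kb stands downstream of the exon 3 circle and upstream of the 8-exon circle, so the same annotated intron flanks both.

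Of the exonic circles abundant in both total RNA libraries, most were listed in both RPAD libraries and the exon 3 circle in RPAD 2 alone. A total of 23 exonic circles had 50 reads or more in both total RNA libraries. Of these, 14 were listed in both RPAD libraries, 3 in RPAD 1 alone, 3 in RPAD 2 alone and 3 in neither. The exon 3 circle is 1 of the 3 found in RPAD 2 alone (13.0%). Among the 17 of these circles listed in RPAD 2, the ratio of the share in RPAD 2 to the mean share in total RNA ranged from 0.0747 to 3.65 with a median of 0.568. The ratio of the exon 3 circle, 1.33, was exceeded by 4 of the 17. The threshold of 50 reads is the circle's own lower count in total RNA, and total RNA shares enter both the choice of the 23 and the ratio, so these values are a description.

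The exonic circles most like it over the 4 libraries also had no read in RPAD 1. Likeness was the Euclidean distance of log2 CPM of back-splice reads, with 1 added, over 4070 exonic circles outside the locus. The nearest, at 0.42, joins 2 exons into 1626 nt on chromosome 6, from 115992889 to 116084475 (transcript ENSMUST00000088896), and had 0 and 447 reads in RPAD, against 61 and 74 in total RNA. The next, at 1.35, joins 5 exons into 424 nt on chromosome 4, from 132212608 to 132228947, and had 0 and 408 reads in RPAD, against 119 and 42 in total RNA. The third, at 1.47, joins 3 exons into 983 nt on chromosome 5, from 100904708 to 100914874, and had 0 and 434 reads in RPAD, against 59 and 22 in total RNA. Only 4 libraries enter this distance, and RPAD 1 weighs heavily in it because a count of 0 lies far from the others on the log scale.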

How the data were processed

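Per the labels' protocols, both kinds of RNA were freed of ribosomal RNA, cDNA was amplified with a NuGEN Ovation kit, and adaptor-ligated libraries went through 17 PCR cycles before sequencing on an Illumina HiSeq2500. The protocol names HeLa RNA in the RNase R step while every library is labelled C2C12, and the label was followed. Reads were processed with cutadapt, TopHat and Cufflinks 2.2.1 against mm9, per the submitters' processing notes. The back-splice caller was not given in the sources used here. Per the file headers, the deposited files hold raw counts (back-splice junction reads) for each circle, listing circles with at least 1 read, and a deposited score per junction of unstated meaning, which was 0 for all 4 Samd4 circles. The rule took circles on the plus strand of chromosome 14 with start at least 47500000 and end at most 47727000; the exon 3 circle is the single exon of 519 nt.

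Circles were keyed by chromosome, start, end and strand, absent ones counted as 0, and positions are counted from 1. RPAD libraries held 150478 and 191246 back-splice reads and total RNA libraries 38850 and 35981; these are not sequencing depth, and all values are relative within a library. The test of abundance was edgeR's (version 4.0.16, R 4.3.3; quasi-likelihood F test, TMM, filterByExpr with minimum count 5 and minimum total 10, group as only term; Benjamini-Hochberg adjusted p under 0.05), with DESeq2 1.42.0 without independent filtering as an alternative. Because the filter's minimum scales with library totals, fewer reads sufficed in total RNA. The SE restates the F test. Shares carry exact Clopper-Pearson intervals; permuting 2 against 2 libraries cannot give a p below 0.333. Python 3.11.15 with scipy 1.17.1, pandas 2.3.3, numpy 2.4.6 and matplotlib 3.10.9 was used. Alternatives were other scalings, filters and denominators, DESeq2, a replicate block and leaving out each library. The rule for named circles takes every exonic circle of the locus, its neighbours in rank (ties are given as counts) and the 3 nearest in pattern; the single-exon circles above it in rank were chosen after their values were seen. The members and lists were chosen with earlier results of these data known. The lists of PUR, myogenic and cell type marker genes were not analysed here, since identifiers could not be paired with symbols, so the labelled cell type was not checked against markers.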

Additional observations from a re-analysis of the deposited data

How the results depend on the processing

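The log2 fold change of the exon 3 circle was -0.32 with TMM and turned positive with DESeq2 size factors in edgeR (0.0537), with DESeq2 itself (0.0538) and when no low-count filter was used (0.575). Leaving out 1 library gave -10.34 to 0.93, with a call only without RPAD 2. For the ENSMUST00000100672 host group it gave -10.26 to 0.36, again with a call only without RPAD 2. Such fits take the spread of a lone library from the other group. Differences of RPAD from total RNA with 1 library left out ranged from -0.349 to 0.114 points for the circle's share of exonic reads, and from -0.174 to 0.142 points for the locus. With at least 2 reads required per circle, they were -0.133 points for the circle, against -0.118 with every circle, and -0.0949 points for the locus, against -0.0158. With all back-splice reads as the denominator the circle's difference was -0.0364 points. For the circle's share of locus reads they ranged from -25.7 to -7.51 points; without RPAD 2 no value could be had. Calls of circles numbered 0 to 214 with 1 library left out (184 without RPAD 1, 214 without RPAD 2) and 0 otherwise. Calls of host groups numbered 0 to 620 (534 without RPAD 1), 104 with DESeq2, 2 without the low-count filter and 2 with the replicate block. Linking identifiers by shared splice site, chosen after seeing the data, joined all 4 circles into 1 host group, with a log2 fold change of -0.17 and 0 calls.

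With the replicate block the log2 fold change was -4.34 for the circle and -4.42 for the host group (edgeR, Benjamini-Hochberg adjusted p = 1 for each), and 0 circles were called. The labels do not say whether same-numbered libraries share a culture or RNA, so the numbers were not taken to pair the libraries. Deviations of same-numbered libraries correlated at 0.0463 over 924 circles. This value cannot decide on pairing, since it could be low in paired libraries too when the RPAD libraries differ this much. The cause of these shifts was not tested. With 2 libraries a group and RPAD libraries that correlated at 0.0581, changes of the size seen here could not be resolved.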
